A study of Caenorhabditis elegans with 6 samples.

Results

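The genes studied encode the 3 catalases (*ctl-1* to *ctl-3*) and the 5 superoxide dismutases (*sod-1* to *sod-5*) of *C. elegans*. They were chosen by gene name and make up 8 of the 28641 genes with an expression value. Whole L4 larvae of WT (Bristol N2) were compared with *alh-4(-)* larvae, which are Bristol N2 carrying the *alh-4* deletion *hj221*, a single allele made by genome editing. Both genotypes were synchronized, fed *E. coli* OP50 and kept at 20 °C without treatment, and each gave 3 biological replicates with 1 RNA sequencing library per replicate. *alh-4* encodes an aldehyde dehydrogenase that turns fatty aldehydes into fatty acids. The comparison asks which of the enzymes that remove superoxide and hydrogen peroxide differ in transcript level when it is lost.

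Superoxide dismutases convert superoxide to oxygen and hydrogen peroxide, and catalases break hydrogen peroxide down to water and oxygen. The families therefore act one after the other. Superoxide arises largely in mitochondria, whereas much of the hydrogen peroxide of peroxisomes is a by-product of the first step of fatty acid beta-oxidation there, catalysed by acyl-CoA oxidases. In *C. elegans*, *sod-1* and *sod-5* encode cytosolic copper/zinc enzymes, *sod-2* and *sod-3* mitochondrial manganese enzymes, and *sod-4* a secreted or membrane-bound copper/zinc enzyme. *sod-3* and *sod-5* are the minor, inducible partners of *sod-2* and *sod-1*, and *sod-3* is a classical target of the transcription factor DAF-16. *ctl-2* encodes the main peroxisomal catalase.

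Expression was given as FPKM, which are fragments scaled to the length of the transcript and to the mapped fragments of the library. Through the length correction, levels can be compared between genes. The depth of the libraries is unknown, since steps worth 1 read could not be found among low values. Replicate 1 of each genotype stood apart, with 17623 and 19102 genes above 0 against 21058 to 22670 in the other 4 libraries, and results are therefore also given without both replicate 1 libraries. FPKM of *alh-4* fell from 291 to 352 in WT to 24.6 to 35.2 in the mutants (log2 fold change -3.36, adjusted p = 0.00301 from limma). Reads cannot come from the deleted sequence, and this fall therefore does not by itself measure transcript amount. Marker genes of intestine, hypodermis, body wall muscle, neurons, germline and sperm were all detected, and of the 26 of these 27 genes that were tested, 0 had an adjusted or an unadjusted p under 0.05 by limma. Over all tested genes these shares were 0.142% and 4.97%, and a count of 0 among 26 lies near them. The germline markers *gld-1* and *mex-5* were, however, higher in every *alh-4(-)* library than in any WT library, at 20.2 to 35.9 FPKM in WT and 39.2 to 44.2 FPKM in the mutants for *gld-1* and 460 to 679 FPKM in WT and 748 to 1001 FPKM in the mutants for *mex-5* (unadjusted p = 0.115 and 0.0534, both adjusted p = 0.9998, limma). Summed FPKM of the 4 germline markers overlapped, at 9221 to 15140 in WT and 11152 to 13482 in the mutants. Of the adult stage markers, the yolk protein gene *vit-2* had an unadjusted p of 0.0111 (adjusted p = 0.626 from limma), at 337 to 659 FPKM in WT and 185 to 277 FPKM in *alh-4(-)* larvae. The genotypes did not overlap in *vit-2* either. The other adult stage marker, *col-19*, overlapped, at 185 to 804 FPKM in WT and 269 to 435 FPKM in the mutants. Its log2 fold change was -0.15 (unadjusted p = 0.780, adjusted p = 0.9998 from limma). The part of stage or of germline in the values below was not tested.

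The catalase genes form a run on the minus strand of chromosome II. In the Ensembl annotation of WBcel235, a later build than the ce10 assembly the reads were mapped to, *ctl-2* (WBGene00000831) lies at II:14299556-14302027, *ctl-1* (WBGene00000830) at II:14303568-14306260 and *ctl-3* (WBGene00013220) at II:14307798-14310779. The gaps between them measure 1540 and 1537 bp and hold 0 annotated genes. The 3 genes are alike in structure, with 4 exons in *ctl-1* and *ctl-2* and 4 or 5 in *ctl-3*, and with products of 497, 500 and 493 to 512 residues. Paralogs of this kind can share reads, and how such reads were assigned here is not stated.

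**Figure D1:**
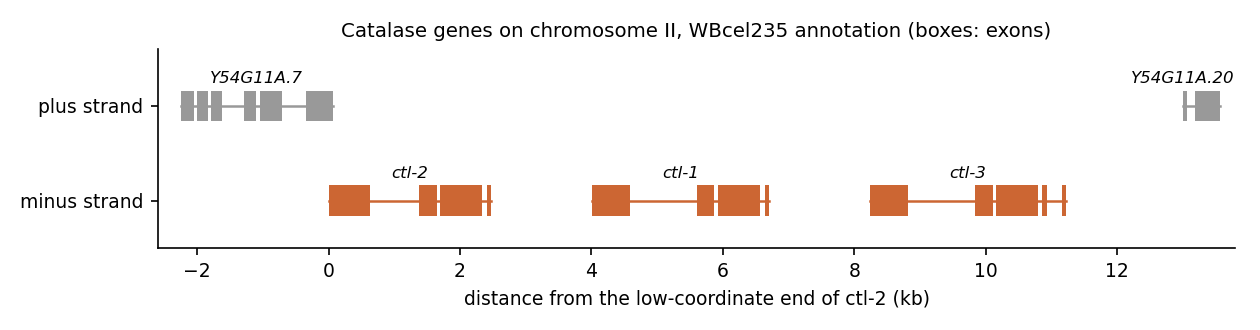
Map of the catalase genes of chromosome II in the WBcel235 annotation, with distance in kb on the horizontal axis and strand on the vertical axis. Boxes are exons and lines span the genes; the 3 catalase genes (orange) follow each other on the minus strand, and only *ctl-2* reaches into a neighbour (grey), by 65 exonic bp of Y54G11A.7 on the plus strand.

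The superoxide dismutase genes are scattered. *sod-1* (WBGene00004930, II:6972706-6973887, minus strand) and *sod-5* (WBGene00007036, II:4417633-4419130, plus strand) lie apart on chromosome II, *sod-2* (WBGene00004931) on the plus strand of chromosome I at 8434550 to 8435807, *sod-3* (WBGene00004932, X:17092753-17094306) on the plus strand and *sod-4* (WBGene00004933, III:9496884-9500375) on the minus strand. Their products are short beside those of the catalases, from 158 to 221 residues. Of the 8 genes, 5 share exonic bases with a gene on the opposite strand. These bases make up 4.03% of the exons of *ctl-2* (65 bp), 2.62% of *sod-2* (21 bp with *dpt-1*, whose span covers all of *sod-2*), 7.38% and 2.72% of *sod-3* (with C08A9.3 and *lido-1*), 11.8% of *sod-1* and 13.4% of *sod-4* (175 bp with *ctr-9*). The library method used, Smart-seq2, does not mark strand, so fragments from these bases cannot be assigned to either gene by strand.

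Transcripts of all 3 catalase genes were more abundant in each *alh-4(-)* library than in any WT library, while no superoxide dismutase gene showed such a separation. Of the 4 germline markers, *gld-1* and *mex-5* separated in the same direction as the catalases, and the others overlapped. Over all tested genes, 5.97% separated in this direction. Of the catalases, only *ctl-2* had an unadjusted p under 0.05, and no member had an adjusted p under 0.05. Values were tested on the log2(FPKM + 1) scale with limma over 16225 genes, those averaging 1 FPKM or more, a filter that 6 of the 8 members passed. *sod-3* and *sod-5* did not pass it, and *ctl-1* passed only through its level in the mutants, so that a count over the tested members is no support for a difference. By adjusted p, 0 of the 6 tested members differed, against 23 of all tested genes (0.142%). At an unadjusted p under 0.05, 1 of the 6 did, where the share of all tested genes was 4.97%, and 3.12% for higher values in the mutants, as in *ctl-2*. The study's thresholds, a fold change over 2 with p under 0.05, were applied here to log2(FPKM + 1) and the limma p. The study itself names a negative binomial test. No member passed both thresholds on this scale, as 2.92% of the tested genes did, 1.54% higher and 1.37% lower in the mutants. In linear FPKM the ratio of means of *ctl-1* was 2.93, but its unadjusted p was 0.0507 by limma. *ctl-2* lay just short of a fold change of 2, and it passed both thresholds in 6 of 15 alternatives, with log2 fold changes from 1.02 to 1.18. Genotypes without overlap were found in 9.21% of the tested genes, with every mutant library above every WT library in 5.97% and below in 3.25%.

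**Figure D2:**
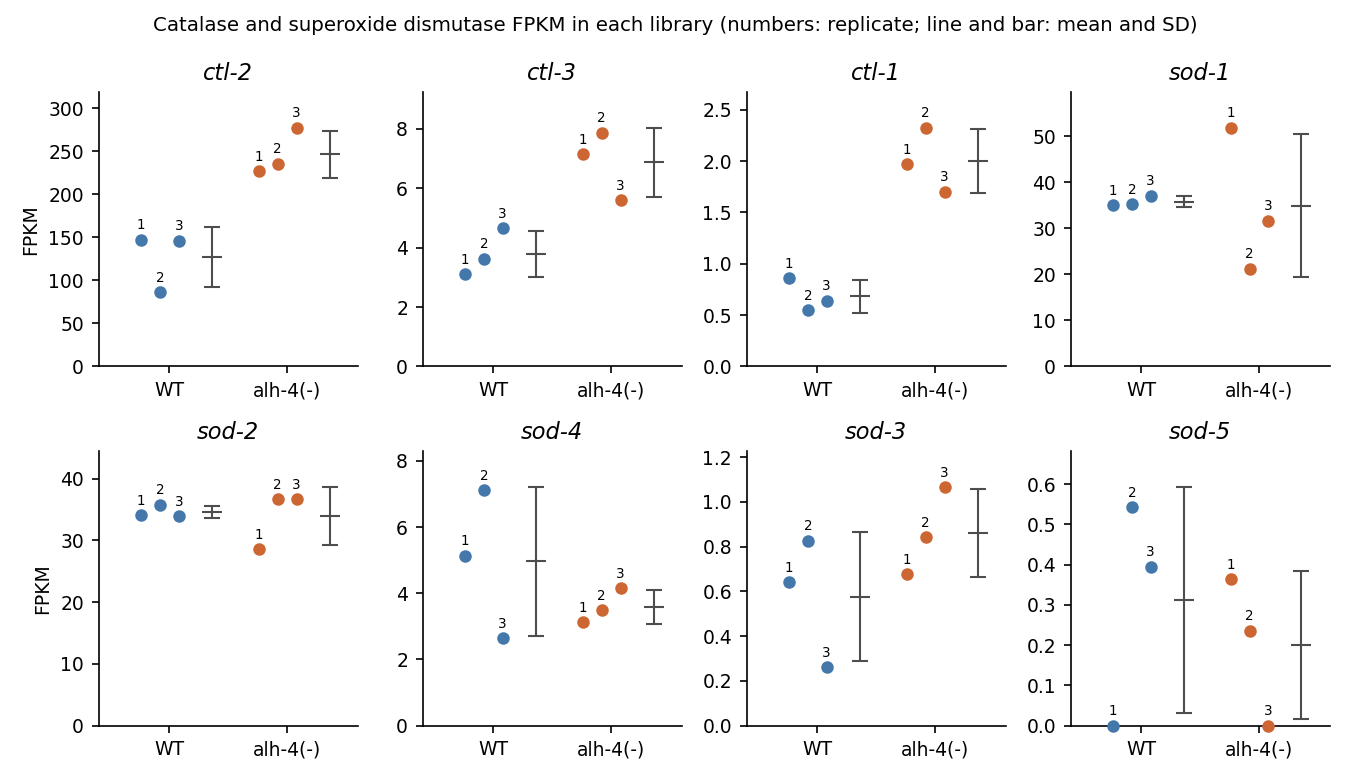
FPKM (vertical axes, from 0) of the 8 genes in the 3 WT (blue) and 3 *alh-4(-)* (orange) libraries, with the replicate number at each point and the mean and SD beside the points. All *alh-4(-)* points of the 3 *ctl* genes lie above the WT points, and the genotypes overlap in the 5 *sod* genes.

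*ctl-2* was by far the most abundant member. Its FPKM was 147, 86.5 and 146 in WT replicates 1, 2 and 3, and 227, 236 and 277 in *alh-4(-)* replicates 1, 2 and 3. WT replicate 2 was the lowest library, and the mutant libraries lay closer together than those of WT, with coefficients of variation of 11.0% and 27.5%. The ratio of the means was 1.95 in linear FPKM, and the log2 fold change was 0.99 with a 95% interval from 0.37 to 1.61 (unadjusted p = 0.00664, adjusted p = 0.504 from limma). This p ranked 212 among the 16225 tested genes. The exact permutation test, two-sided with 3 libraries against 3, gave the smallest p that it can reach, 0.1. Without WT replicate 2 the log2 fold change was 0.74, and without both replicate 1 libraries it was 1.18. The neighbour Y54G11A.7, which shares 65 exonic bp with *ctl-2*, had 12.9 to 18.2 FPKM in WT and 15.3 to 23.1 FPKM in *alh-4(-)* worms, far below *ctl-2* in every library.

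*ctl-3* was far less abundant, and *ctl-2* exceeded it 34.3-fold in WT and 37.0-fold in the mutants on average. Its FPKM was 3.10, 3.62 and 4.65 in WT and 7.15, 7.88 and 5.60 in *alh-4(-)* replicates 1 to 3. The gap between the genotypes was narrow, since the lowest mutant library and the highest WT library, both replicate 3, were 5.60 and 4.65 FPKM. The ratio of the means was 1.81, and the log2 fold change was 0.72 (95% interval -0.01 to 1.45, unadjusted p = 0.0529, adjusted p = 0.9998 from limma). Without both replicate 1 libraries it was 0.58.

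*ctl-1* was barely expressed at this stage. Its FPKM was 0.858, 0.549 and 0.638 in WT and 1.97, 2.32 and 1.70 in *alh-4(-)* replicates 1 to 3. Every mutant library was at least 1.70 FPKM and every WT library at most 0.858. The ratio of the means, 2.93, was the largest of the 8 genes in linear FPKM. On the log2(FPKM + 1) scale, which shrinks changes of genes near 1 FPKM, the log2 fold change was 0.83 (95% interval -0.004 to 1.67, unadjusted p = 0.0507, adjusted p = 0.9998 from limma). With a pseudocount of 0.1 in place of 1 it was 1.43 (unadjusted p = 0.0682, limma), and with no filter on low values the unadjusted p was 0.0108 (adjusted p = 0.777 from limma).

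**Figure D3:**
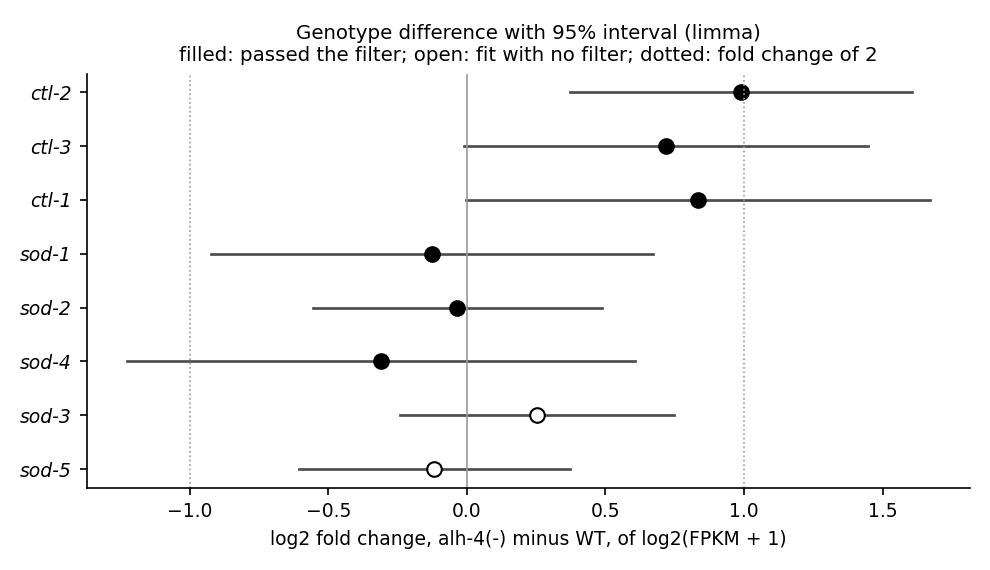
Log2 fold change of *alh-4(-)* over WT on the log2(FPKM + 1) scale (horizontal axis) with the 95% interval from limma for each of the 8 genes. The interval of *ctl-2* (0.37 to 1.61) lies above 0 before any adjustment, those of *ctl-1* and *ctl-3* reach just below 0, and those of the 5 *sod* genes include 0 widely.

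Summed over the run, catalase FPKM was 151, 90.7 and 152 in WT replicates 1 to 3 and 236, 246 and 285 in *alh-4(-)* replicates 1 to 3, means of 131 ± 35.1 and 255 ± 25.8 (SD, n = 3 each). How the handling of reads shared by the paralogs affects the sum, or the values of *ctl-1* and *ctl-3* given above, was not tested. *ctl-2* supplied between 95.4% and 97.4% of it in WT and between 95.9% and 97.4% in the mutants, means of 96.4% and 96.5%. The makeup of the catalase transcripts thus differed between genotypes by less than the spread between replicates for *ctl-2*. The share of *ctl-3* was 3.04% ± 0.97 in WT and 2.73% ± 0.67 in the mutants (SD, n = 3 each), also within the spread. The share of *ctl-1* was 0.53% ± 0.10 in WT and 0.79% ± 0.18 in the mutants (SD, n = 3 each), means further apart than either SD. Its ranges, 0.42% to 0.61% in WT and 0.60% to 0.95% in the mutants, overlapped narrowly. WT replicate 2 (0.605%) lay just above *alh-4(-)* replicate 3 (0.598%).

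*sod-1* and *sod-2*, the main cytosolic and mitochondrial enzymes, had nearly the same mean level within each genotype and differed little in mean between the genotypes. In single *alh-4(-)* libraries the levels of *sod-1* and *sod-2* lay further apart than in any WT library. *sod-1* had FPKM values of 35.0, 35.2 and 37.1 in WT and 51.8, 21.2 and 31.7 in *alh-4(-)* replicates 1 to 3. The WT libraries were almost identical, whereas the mutant libraries fell on both sides of them, replicate 1 above and replicates 2 and 3 below. The highest over the lowest library was 1.06 in WT and 2.44 in the mutants. Among the 3967 genes within a factor of 2 of its mean level, 1.03% were as even in WT and 19.6% as uneven in the mutants, so that it was the WT libraries that were unusually alike. The log2 fold change was -0.12 (95% interval -0.92 to 0.67, adjusted p = 0.9998 from limma, exact permutation p = 0.7), and its sign rests on single libraries, with 0.18 without *alh-4(-)* replicate 2 and -0.45 without *alh-4(-)* replicate 1. The noncoding RNA gene C15F1.13 on the opposite strand shares 85 bp with the exons of *sod-1* and had FPKM values of 15.3, 12.2 and 18.3 in WT and 24.3, 8.70 and 13.2 in the mutants. It was thus highest and lowest in the same libraries as *sod-1*, and reads from these bases cannot be told apart by strand.

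*sod-2* was the steadiest member. It had FPKM values of 34.0, 35.8 and 33.9 in WT and 28.6, 36.6 and 36.7 in *alh-4(-)* replicates 1 to 3. Only *alh-4(-)* replicate 1 stood off, as the lowest library, in which *sod-1* was at its highest. The log2 fold change was -0.03 with the narrowest interval of the tested *sod* genes, from -0.56 to 0.49 (adjusted p = 0.9998 from limma), and it changed sign to 0.07 without both replicate 1 libraries. *dpt-1*, in whose span *sod-2* lies on the other strand, had 190 to 279 FPKM in WT and 217 to 292 FPKM in the mutants, but only 21 bp of exon in common with it. The ratio of *sod-1* to *sod-2* was 1.03, 0.984 and 1.09 in WT and 1.81, 0.579 and 0.863 in the mutants. Its mean log2 value differed by -0.10 between the genotypes (two-sided exact permutation test, p = 0.8, n = 3 against 3), and the mutants were the more variable, with an SD of 0.84 against 0.08.

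*sod-4*, the extracellular enzyme, had FPKM values of 5.14, 7.12 and 2.64 in WT and 3.14, 3.49 and 4.15 in *alh-4(-)* replicates 1 to 3. The WT libraries enclosed all those of the mutants, and here the WT scatter was the larger. The log2 fold change was -0.31 (95% interval -1.23 to 0.61, adjusted p = 0.9998 from limma), and it lay between -0.63 and -0.05 as single libraries were left out. *ctr-9*, which overlaps 13.4% of the exonic bases of *sod-4* from the other strand, was expressed at 77.3 to 133 FPKM in WT and 84.0 to 144 FPKM in the mutants, well above *sod-4* in all 6 libraries.

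The inducible enzymes were close to the lower end of the measured range. *sod-3* had FPKM values of 0.640, 0.826 and 0.262 in WT and 0.677, 0.842 and 1.07 in *alh-4(-)* replicates 1 to 3. The genotypes overlapped, since WT replicate 2 lay above mutant replicate 1. In a fit with no filter, the log2 fold change of *sod-3* was 0.25 (95% interval -0.24 to 0.75, adjusted p = 0.9995 from limma), and 0.10 without WT replicate 3. *lido-1*, which shares 24 exonic bp with *sod-3*, had 1.61 to 2.02 FPKM in WT and 2.63 to 4.17 FPKM in the mutants. It did not overlap between genotypes and lay above *sod-3* in every library. C08A9.3, which shares 65 exonic bp, had 0 to 1.62 FPKM in WT and 0 to 1.66 FPKM in the mutants. The part of reads from these bases was not tested. *sod-5* was listed at 0 in WT replicate 1 and in *alh-4(-)* replicate 3, and at 0.542 and 0.395 FPKM in the other WT and 0.363 and 0.236 FPKM in the other mutant libraries. With no filter its log2 fold change was -0.12 (95% interval -0.61 to 0.37), with either sign among the alternatives. No library of either genotype therefore showed *sod-3* or *sod-5* above 1.07 FPKM.

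The order of the mean levels in WT was *ctl-2*, *sod-1*, *sod-2*, *sod-4*, *ctl-3*, *ctl-1*, *sod-3* and *sod-5*. Within it, the libraries of *sod-1* and *sod-2*, *sod-4* and *ctl-3*, *ctl-1* and *sod-3*, and *sod-3* and *sod-5* overlapped, so that these neighbours were not separated beyond their spread. In *alh-4(-)* worms *ctl-3* stood above *sod-4* and the only overlap left among neighbours was that of *sod-1* and *sod-2*. Summed FPKM of the 5 superoxide dismutases was 74.8, 79.5 and 74.3 in WT and 84.5, 62.4 and 73.6 in the mutants, and the mutant libraries enclosed the WT values. *sod-1* and *sod-2* together supplied 89.3% to 95.6% of that sum in WT and 92.7% to 95.1% in the mutants. Summed catalase FPKM was 2.02, 1.14 and 2.04 times the superoxide dismutase sum in WT and 2.79, 3.94 and 3.87 times in the mutants, without overlap. Since the members were chosen with their values known, no test is given for these sums.

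**Figure D4:**
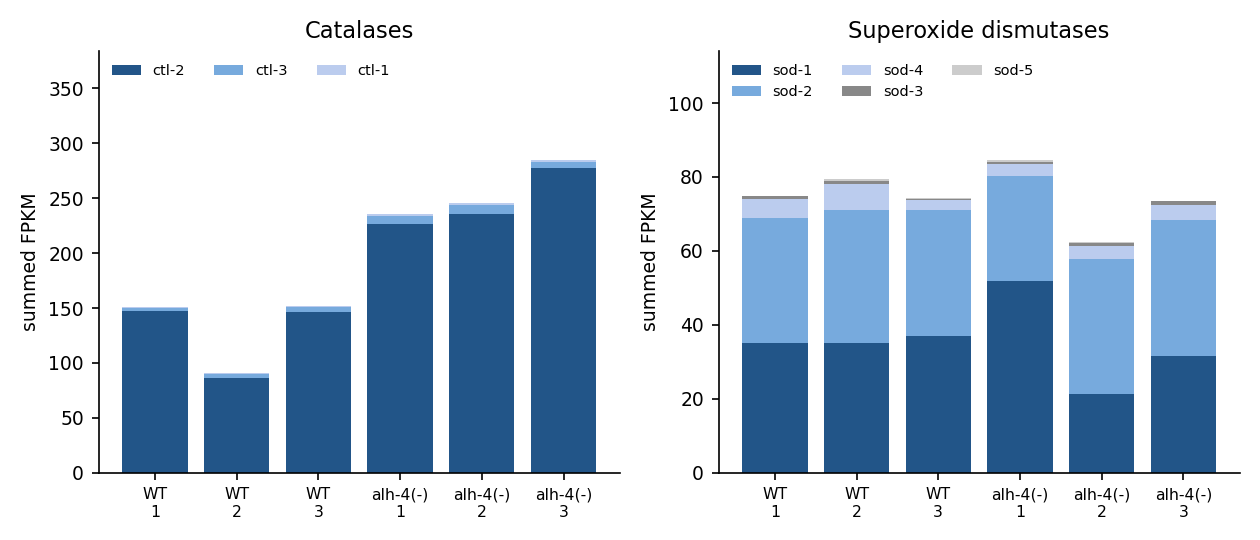
Summed FPKM (vertical axes, from 0) of the 3 catalase genes and of the 5 superoxide dismutase genes in each of the 6 libraries, stacked by gene. *ctl-2* makes up at least 95.4% of every catalase bar, and the catalase bars of the mutants (236 to 285) are all taller than those of WT (90.7 to 152), while the superoxide dismutase bars of the mutants (62.4 to 84.5) enclose those of WT.

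In a whole-worm sample, more transcript per cell and more cells of an expressing type cannot be told apart. Whether the families differ in their response was not tested as such.

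Among other enzymes that remove hydrogen peroxide, no tested gene separated the genotypes. Of the 11 peroxiredoxin and glutathione peroxidase genes listed, 10 were tested and 0 of them had an adjusted or an unadjusted p under 0.05 by limma or groups that did not overlap. Over all tested genes, 4.97% had an unadjusted p under 0.05 by limma and 9.21% did not overlap. With 10 genes, a count of 0 lies near these shares, which also apply to the lists below. Their median log2 fold change was -0.01, from -1.18 in *gpx-3* to 0.29 in *gpx-6*. The value of *gpx-3* comes from WT replicate 1, with 13.4 FPKM there and at most 0.244 FPKM elsewhere. *prdx-2*, the main cytosolic peroxiredoxin, had 172 to 208 FPKM in WT and 143 to 214 FPKM in the mutants. *prdx-3*, its mitochondrial counterpart, had 126 to 154 FPKM in WT and 113 to 145 FPKM in the mutants, about as much as *ctl-2* in WT.

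Of the 15 genes for thioredoxins, glutaredoxins and glutathione synthesis or recycling, all were tested, 0 had an adjusted p under 0.05 by limma, and 1 had an unadjusted p under 0.05. Their median log2 fold change was -0.01. The 1 gene was *trx-5*, a thioredoxin-related gene with 2.61, 5.88 and 1.71 FPKM in WT that was listed at 0 in all 3 mutant libraries (unadjusted p = 0.00304, adjusted p = 0.400 from limma). *trx-5* passed the filter only through its level in WT, so that its p is no support for a difference. With the depth of the libraries unknown, a listed 0 cannot be told apart from a transcript that was missed. At the other end, *trx-3* had FPKM values of 181, 162 and 469 in WT and 585, 496 and 365 in the mutants, which overlap. *gcs-1*, the rate-limiting enzyme of glutathione synthesis, differed by -0.01 on the log2 scale (standard error 0.20).

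Among oxidases that make hydrogen peroxide or superoxide, log2 fold changes lay on both sides of 0. The only gene called by adjusted p was higher in *alh-4(-)* worms. Of 14 listed, 13 were tested, 1 had an adjusted p under 0.05 by limma, and 5 had an unadjusted p under 0.05, with 3 of these higher and 2 lower in *alh-4(-)* worms. The genotypes did not overlap in 6, of which 4 were higher. The 4 were the acyl-CoA oxidase genes *acox-1*, C48B4.1, F58F9.7 and F59F4.1, with log2 fold changes of 1.38, 0.49, 2.45 and 0.97. The adjusted p was 0.0849 for *acox-1*, 0.9998 for C48B4.1 and 0.329 for F59F4.1 (limma). F58F9.7 (*acox-3* in the RefSeq annotation) was the one called by adjusted p (0.0261 from limma). Lower was the acyl-CoA oxidase gene F08A8.2 (*acox-1.2*), at -1.15 (adjusted p = 0.910 from limma). The D-aspartate oxidase gene *ddo-2* was also lower, at 72.5 to 102 FPKM in WT and 33.5 to 70.7 FPKM in the mutants (log2 fold change -0.77, adjusted p = 0.993 from limma). The dual oxidase genes *bli-3* and *duox-2* overlapped between genotypes.

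Among 9 regulators of stress responses and peroxisomal genes, all tested, 0 had an adjusted p under 0.05 by limma and 2 an unadjusted p under 0.05, and all 9 had a log2 fold change above 0, from 0.14 in *daf-2* to 0.97 in *pqm-1*, with a median of 0.40. Of all tested genes, 57.95% lay above 0, with a median of 0.07. *pqm-1*, a zinc finger transcription factor that acts opposite DAF-16, had FPKM values of 53.3, 54.1 and 59.6 in WT and 92.2, 122 and 118 in the mutants (adjusted p = 0.339 from limma). *daf-16* had FPKM values of 168, 185 and 239 in WT and 240, 371 and 321 in the mutants, which differ by 0.65 on the log2 scale (adjusted p = 0.910, limma), with *alh-4(-)* replicate 1 hardly above WT replicate 3. *nhr-79*, a nuclear receptor gene, had an unadjusted p of 0.0671 (adjusted p = 0.9998, limma) without overlap, at 2.45 to 6.12 FPKM in WT and 6.80 to 7.88 FPKM in the mutants. *nhr-49* overlapped, at 744 to 960 FPKM in WT and 926 to 1299 FPKM in the mutants.

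**Figure D5:**
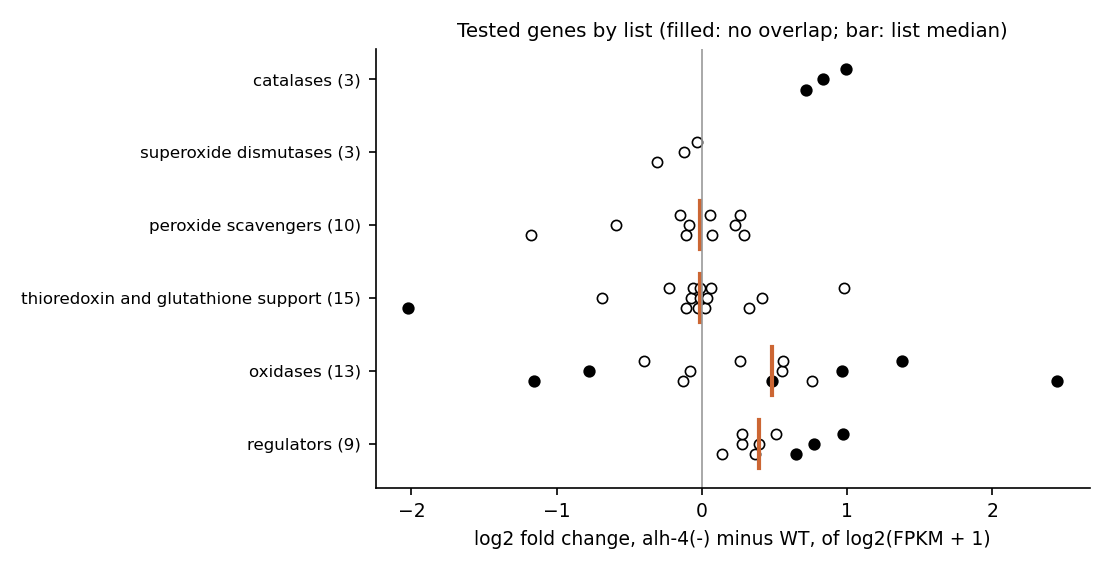
Log2 fold change of *alh-4(-)* over WT on the log2(FPKM + 1) scale (horizontal axis) of each tested gene, in rows for the catalases, the superoxide dismutases and the 4 related gene lists, with the number tested in brackets. Filled points mark genes whose genotypes do not overlap and orange bars the medians of the related lists, which are -0.01 for peroxide scavengers and for thioredoxin and glutathione genes, 0.49 for oxidases and 0.40 for regulators.

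As a description of how the members varied over the 6 libraries, Pearson's r was computed between log2 values, with genotype and library effects included. Between the catalases r was 0.88 for *ctl-1* with *ctl-2*, 0.88 for *ctl-1* with *ctl-3* and 0.76 for *ctl-2* with *ctl-3*. These paralogs can share reads, and the part of such reads in these values was not tested. Between *sod-1* and *sod-2* it was -0.83, and *alh-4(-)* replicate 1 was the highest library of *sod-1* and the lowest of *sod-2*. The tested genes most like *ctl-2* were T10B5.8, C29F9.3, *gad-1*, *fbxa-18* and *tag-244* (r from 0.990 to 0.995), and those most like *ctl-3* were F22F4.5, Y75B12B.1, ZK666.2, C46E10.9 and *bath-27* (r from 0.981 to 0.998). The genes most like *sod-1* were *rpl-5*, C32H11.7, E01G6.2, *tag-174* and ZK809.3 (r from 0.976 to 0.984), of which *rpl-5* encodes a ribosomal protein. Closest to *sod-2* were *gst-41*, K01A6.6, C53C9.4, C16C2.8 and F46F5.13 (r from 0.995 to 0.997), and closest to *sod-4* were C01A2.2, *cah-4*, ZK1073.1, R02F2.8 and C33G8.4 (r from 0.980 to 0.996). With only 6 libraries, many of the 16225 tested genes had an r above 0.9 with a member. The counts were 260 for *ctl-2*, 186 for *ctl-3*, 98 for *sod-1*, 1134 for *sod-2* and 79 for *sod-4*.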

How the data were processed

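Libraries of whole L4 larvae, 3 of WT and 3 of *alh-4(-)*, were made by the study with a Smart-seq2 protocol. The authors used the ce10 assembly and an iGenome annotation, and the deposited values are FPKM per gene for each library. The submitters' processing notes name HISAT2 2.1.0 and StringTie 1.3.3 without stating their roles. FPKM sums per library were 3310620 to 3364265 and are not read numbers, so that no interval from counts is given.

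Values were transformed to log2(FPKM + 1), and genes averaging 1 FPKM or more were fitted with limma 3.58.1 in R 4.3.3 (lmFit, eBayes with a trend, two-sided, Benjamini-Hochberg adjustment over all 16225 tested genes). *sod-3* and *sod-5* were fitted with no filter. Single values were compared by two-sided exact permutation tests, which cannot give a p under 0.1 here. Gene models came from the Ensembl annotation of WBcel235. The study's thresholds were a fold change over 2 and p under 0.05. The study names a negative binomial test, which needs counts and was not run. The thresholds were therefore applied to the fold change on log2(FPKM + 1) and the limma p.

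The members and gene lists were chosen with earlier results of these data known. Genes named are the members, *alh-4*, the extremes of each list, list genes with an unadjusted p under 0.05 and groups that do not overlap, and the 5 genes most like a member. C15F1.13, *dpt-1*, *ctr-9*, Y54G11A.7, C08A9.3 and *lido-1* were named for sharing exonic bases, and *prdx-2*, *prdx-3*, *gcs-1*, *bli-3*, *duox-2*, *nhr-49*, *nhr-79*, *vit-2*, *col-19*, *gld-1*, *mex-5* and C48B4.1 after their values were seen. All listed genes but F08A8.1 matched a name in the table. Promoter motifs and sequences were not analysed here. Alternatives were another pseudocount, other filters and scalings, no trend, array quality weights, a replicate block and leaving out libraries. Leaving out both replicate 1 libraries was chosen after seeing the data.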

Additional observations from a re-analysis of the deposited data

How the results depend on the processing

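The 3 catalases kept a log2 fold change above 0 under every alternative run (14 each for *ctl-1* and *ctl-3*, 15 for *ctl-2*), and no member reached an adjusted p under 0.05 in any, the lowest being 0.115 for *ctl-2* with array quality weights (limma). *ctl-2* passed the study's thresholds, which it missed at 0.99, with array quality weights, without WT replicate 1 or 3, without *alh-4(-)* replicate 1 or 2 and without both replicate 1 libraries (log2 fold changes 1.02 to 1.18). The unadjusted p stayed under 0.05 in all 15 alternatives for *ctl-2*, in 3 of 14 for *ctl-1* and in 1 of 14 for *ctl-3*. With single libraries left out, log2 fold changes ran from 0.76 to 0.91 for *ctl-1*, 0.74 to 1.12 for *ctl-2*, 0.61 to 0.84 for *ctl-3*, -0.45 to 0.18 for *sod-1*, -0.0935 to 0.0817 for *sod-2*, 0.10 to 0.37 for *sod-3*, -0.63 to -0.05 for *sod-4* and -0.30 to 0.0107 for *sod-5*, the difference in *ctl-2* share from -0.47 to 0.52 percentage points, and that of the log2 ratio of *sod-1* to *sod-2* from -0.55 to 0.28. The sign turned for *sod-2* with array quality weights (0.0688) and without both replicate 1 libraries (0.0705), and for *sod-5* with quantile normalization (0.13). The cause was not tested.

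Over all genes, the 23 called by adjusted p became 91 with array quality weights, 36 after quantile normalization, 15 with the replicate block, 11 with no filter and 9 without both replicate 1 libraries, and 6 to 25 with single libraries left out. The 473 past the study's thresholds became 894 with array quality weights, 266 with a mean FPKM of at least 10 (fewer genes tested) and 736 without both replicate 1 libraries, and 361 to 930 with single libraries left out. Their split of 250 higher and 223 lower became 626 and 268 with array quality weights, 224 and 271 when scaled to the upper quartile, 730 and 200 without *alh-4(-)* replicate 1, and 181 and 319 without *alh-4(-)* replicate 2. Same-numbered libraries correlated by 0.31, 0.28 and 0.00 in their deviations from the genotype means, and differently numbered ones by -0.31 to 0.17. These values do not settle whether the numbers pair the samples. The main fit took the libraries as unpaired, with the replicate block as an alternative. With the replicate block the adjusted p of *ctl-2* was 0.357 (limma), and no member's side of the threshold moved. The mean FPKM of at least 10 removed *ctl-1*, *ctl-3* and *sod-4*, which have no value there. The unknown depth limits what can be said of *ctl-1*, *sod-3* and *sod-5*, which lie near or under 1 FPKM.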

Other observations

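The order of the *alh-4(-)* libraries seen in *sod-1*, with replicate 1 highest and replicate 2 lowest, was also that of *prdx-2*, *prdx-3*, *prdx-6* and *gpx-2* among the 10 tested peroxide scavengers, and of *trx-2*, *gsr-1*, *glrx-5* and *glrx-10* among the 15 thioredoxin and glutathione genes. It was that of 0 of the 13 oxidases and 0 of the 9 regulators. Over all tested genes 12.1% had this order. It was also that of 2 of 5 intestine, 2 of 4 germline, 2 of 4 sperm, 1 of 4 neuron and 1 of 2 adult stage markers, and of 0 of 5 hypodermis and 0 of 4 body wall muscle markers. The order was chosen after the values of *sod-1* were seen, and *alh-4(-)* replicate 1 is also the library with the fewest genes above 0 (17623). The part of that library in the pattern was not tested.

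*sod-2* was among the most even genes of its level in WT, where 0.655% of 3967 genes within a factor of 2 of its mean varied as little between libraries (highest over lowest 1.05).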
